A study of Rattus norvegicus with 35 samples.

Results

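The GABA-A receptor subunit genes Gabra2, Gabra3, Gabra4, Gabra5, Gabrb1, Gabrb2 and Gabrd were followed in hippocampus of female Sprague Dawley rats. They were chosen by name as targets of neurosteroids and are 7 of the 15059 genes of the deposited count table. All 7 passed the filter on low counts, which kept 14411 genes. Rats had ovariectomy or sham surgery at 6 months of age, a washout of 2 weeks and 7 days in their treatment group before tissue was taken. Intact sham-operated rats formed 1 group, and the label gives them no agent. Ovariectomised rats received daily intraperitoneal estradiol at 0.16 mg/kg, tamoxifen at 3.23 mg/kg, raloxifene at 9.68 mg/kg, exemestane at 0.16 mg/kg, anastrozole at 4.03 mg/kg or vehicle. There were 5 libraries for each of the 7 groups, and 35 altogether. Tamoxifen and raloxifene are selective estrogen receptor modulators, and exemestane and anastrozole inhibit aromatase, the enzyme that makes estrogens from androgens. Ovariectomy is shared by every group other than sham, so drugs were compared against ovariectomised vehicle rats. The labels do not say whether any libraries share an animal or a surgery day, and p-values measure the spread between these libraries.

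GABA-A receptors are chloride channels of 5 subunits that open when GABA binds and quieten the neuron. Alpha and beta subunits form the GABA sites, and gamma or delta subunits help to decide whether a receptor sits at synapses or outside them. Neurosteroids such as allopregnanolone, a metabolite of progesterone, strengthen the current through these channels, and receptors with the delta subunit are known for their sensitivity to them. In rodent hippocampus, alpha4 and delta subunits are paired in receptors outside synapses of dentate granule cells, and alpha5 carries much of the tonic current of pyramidal cells.

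In the order of genes in the RefSeq rat annotation (GRCr8), Gabrb1, Gabra4 and Gabra2 lie in 1 cluster with Cox7b2 and Gabrg1. Gabra5 lies next to Gabrg3, Gabrb2 lies next to Gabra6, and Gabra3 lies between Gabre and Gabrq with other genes between them. Gabrd has no other subunit gene among its 4 neighbours on either side. The promoters of Gabra4 and Gabrd are shown because these genes, whose proteins are partners in one receptor type, stood furthest apart in the results. They run from 250 bases before to 50 bases after the RefSeq start in GRCr8. That of Gabra4 is chr14:36944497-36944796 on the plus strand, and that of Gabrd is chr5:171252660-171252959 on the minus strand. Capitals mark the core of the motif bound by EGR factors, GCGNGGGCG, which are zinc finger proteins induced by neuronal activity.
Gabra4: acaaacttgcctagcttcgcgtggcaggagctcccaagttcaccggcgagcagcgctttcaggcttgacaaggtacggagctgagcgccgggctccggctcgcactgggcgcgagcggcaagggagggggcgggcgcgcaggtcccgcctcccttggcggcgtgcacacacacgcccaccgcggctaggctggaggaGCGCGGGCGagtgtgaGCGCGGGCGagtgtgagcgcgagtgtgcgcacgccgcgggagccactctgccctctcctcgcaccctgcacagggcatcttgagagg
Gabrd: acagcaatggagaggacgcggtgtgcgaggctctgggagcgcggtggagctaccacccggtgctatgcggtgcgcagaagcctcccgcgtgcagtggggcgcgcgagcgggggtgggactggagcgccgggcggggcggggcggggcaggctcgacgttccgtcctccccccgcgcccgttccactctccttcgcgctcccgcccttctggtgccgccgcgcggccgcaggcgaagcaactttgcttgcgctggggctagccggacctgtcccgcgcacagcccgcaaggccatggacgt

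Of the 7 genes, 6 had a promoter in the RefSeq table. The EGR core was searched on both strands and was found in the Gabra4 promoter only, with 2 matches starting at bases 198 and 214, while 4.98% of all 33469 promoters of this length hold it. GC content was 70.7% for Gabra4 and 73.7% for Gabrd, against a median of 51.7% over all promoters. The palindromic estrogen response element, searched by its full consensus, was in none of the 6 windows and in 0.0269% of all promoters. Its arm GGTCA was in the Gabrb2 window at base 288 and in 40.5% of all promoters. The core TGACG of the cAMP response element was in none of the 6 and in 21.2% of all promoters. The arm GGTCA is part of the palindrome, so their matches can overlap. A match is a description of the letters alone.

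Assigned counts ran from 5578204 to 12093294 per library, with a median of 8010522, and the 7 genes had between 94 and 1796 counts in each library. The libraries fell into 2 classes, B with 15 and A with 20, which the labels do not name. The split is the sign of the first component of the authors' per-gene scaling factors, which held 72.3% of their variance against 1.693% for the second, with the subunit genes left out. Class B held 5 of 5 raloxifene, 4 of 5 exemestane, 3 of 5 tamoxifen, 2 of 5 anastrozole and 1 of 5 vehicle libraries, and 0 sham or estradiol libraries. The share of counts on Rn7sl1, a noncoding RNA that helps to target proteins for secretion, was 2.90 to 3.84% in class B and 4.47 to 6.49% in class A. All raloxifene libraries are of class B and 1 vehicle library is, so in that comparison treatment and class can hardly be told apart. Each test below is therefore given as designed and with class as a term.

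One library, sham replicate 1, went against the hippocampus label more than the rest. Tcf7l2, a thalamic and habenular marker, was at 90.8 CPM (counts scaled to the TMM-adjusted total of the library) in it and 8.78 to 15.4 CPM in the other 34 libraries. Slc17a6, the vesicular glutamate transporter of thalamic neurons, was at 135.6 CPM in it and 10.7 to 29.7 CPM in the others. Wfs1, a marker of CA1 pyramidal cells, was at 133.7 CPM in it and 259 to 426 CPM in the others, and Prox1 of dentate granule cells was at 70.2 CPM against 84.5 to 164 CPM. Where a result named below rests on this library, it is given with and without it.

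Raloxifene libraries had more Gabra2, Gabra3, Gabra4, Gabra5 and Gabrb1 messenger RNA than vehicle libraries, and exemestane libraries had more Gabra2 and Gabra5. The rises were small, between 0.19 and 0.50 on the log2 scale. Gabrd had a negative fold in both comparisons and did not pass the test in either. As designed, 5 of 7 genes rose in raloxifene, where 24.8% of all genes tested passed in either direction, and 2 of 7 rose in exemestane, where 6.51% passed. The median log2 fold of the 7 was 0.35 in raloxifene and 0.29 in exemestane, beside medians of -0.02 over all genes in both comparisons. With library class in the model, 0 of 7 passed in edgeR in either comparison, with 1 and 2 genes at an unadjusted p under 0.05. Of all 14411 genes, 0.00694% were then called in raloxifene and 0.0% in exemestane, and 764 and 1004 had an unadjusted p under 0.05. As designed, the exemestane count was 0 without any 1 of exemestane replicates 1 to 4 or vehicle replicates 1, 2, 3 and 5. It was 5 without exemestane replicate 5, the only class A library of that group. Without vehicle replicate 4, the only class B vehicle library, Gabra2, Gabra4 and Gabra5 passed. Leaving out either of these 2 libraries sets exemestane and vehicle further apart in class. The raloxifene count was 3 without vehicle replicate 1, where Gabra4 and Gabrb1 did not pass. In these bulk samples, more cells of a type and more RNA per cell cannot be told apart.

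**Figure D1:**
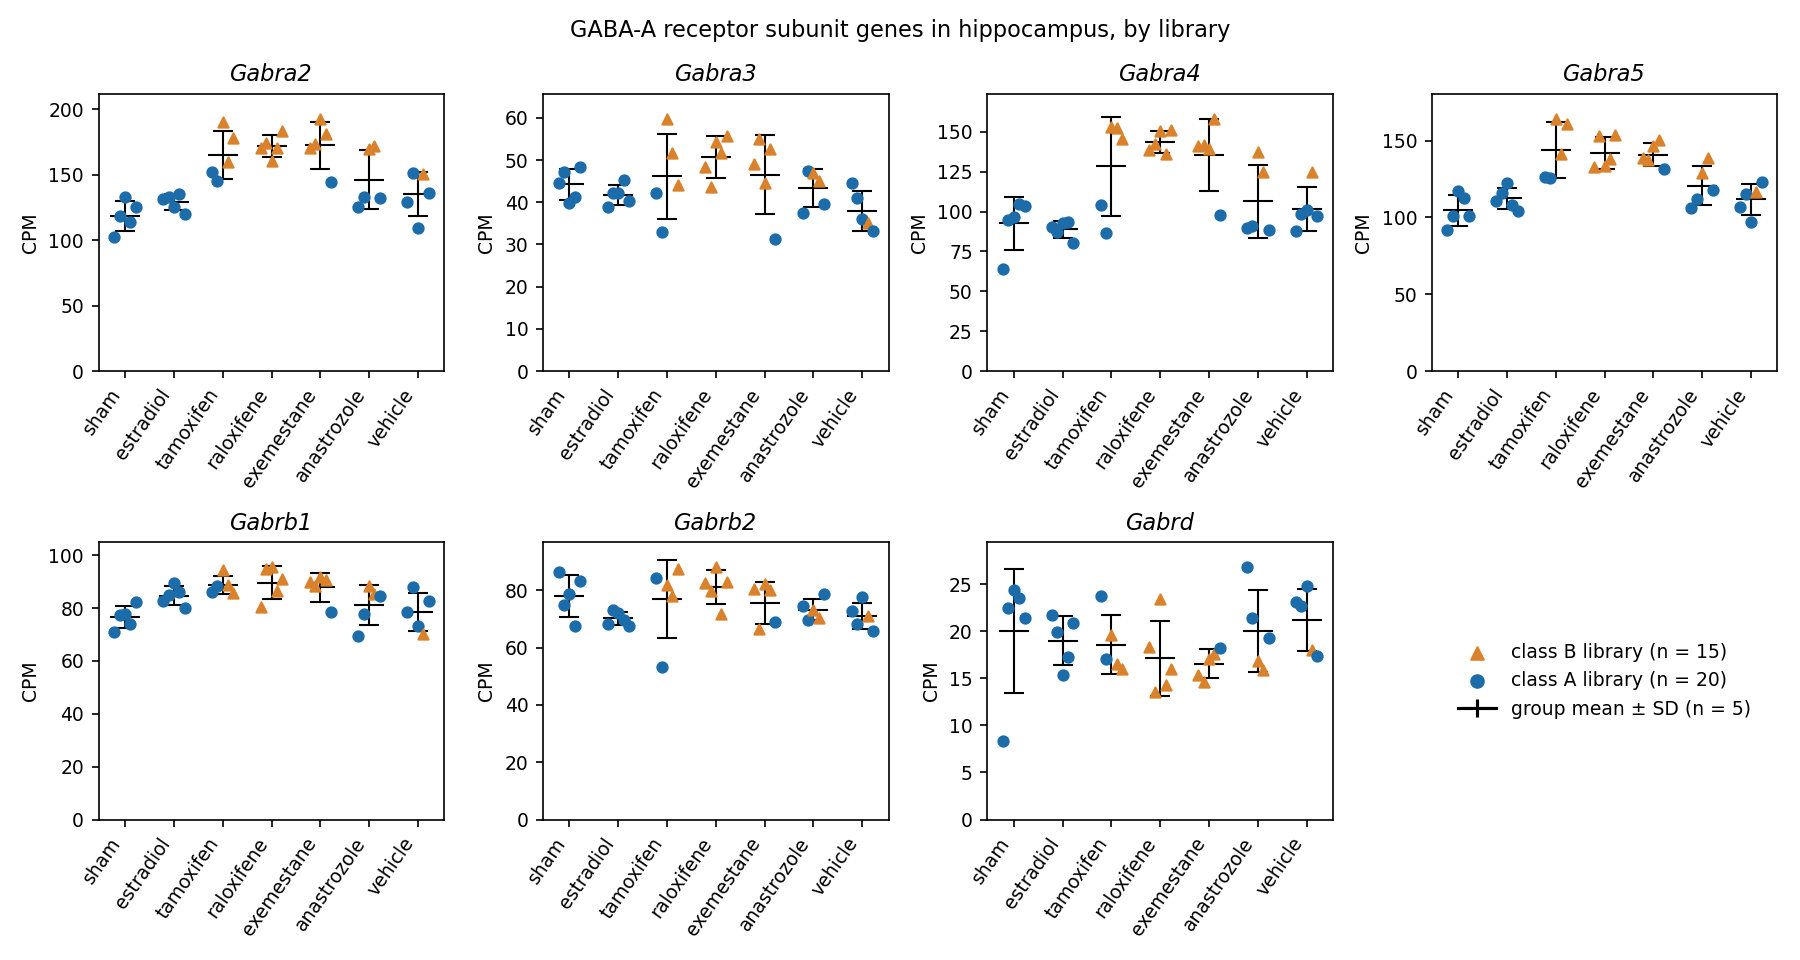
Expression of the 7 subunit genes in CPM (linear axis from 0) in each library of the 7 groups, with the vehicle group at the right. Triangles are class B libraries (n = 15), circles are class A libraries (n = 20), and bars give the group mean ± SD (n = 5). All 15 class B libraries lie at or above 124.6 CPM for Gabra4 and all 20 class A libraries at or below 104.6 CPM.

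Among the alpha subunits, Gabra2 encodes the alpha2 subunit, which is found at many inhibitory synapses, including those on the axon initial segment of pyramidal cells. It was at 170.5, 174.5, 160.4, 170.8 and 183.2 CPM in raloxifene libraries and at 129.2, 151.0, 109.6, 150.2 and 136.3 CPM in vehicle libraries. The lowest raloxifene library was above the highest vehicle library. The log2 fold change was 0.35 ± 0.0926 (SE) as designed (edgeR adjusted p = 0.0137) and 0.11 ± 0.0757 with class (edgeR adjusted p = 0.964). In exemestane the values were 170.2, 173.4, 192.8, 181.1 and 144.4 CPM, the last in the only class A library of that group and inside the vehicle range. The exemestane fold was 0.35 ± 0.0928 (edgeR adjusted p = 0.0403), and 0.17 ± 0.071 with class (edgeR adjusted p = 0.656).

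Gabra5, which encodes the alpha5 subunit of the tonic current, moved much like Gabra2. It was at 132.7, 152.9, 133.6, 137.9 and 153.8 CPM in raloxifene libraries and at 106.6, 114.9, 97.11, 116.8 and 123.0 CPM in vehicle libraries. Exemestane libraries had 138.9, 137.3, 146.4, 150.1 and 131.5 CPM. All 5 libraries of each drug were above all 5 vehicle libraries, and Gabra5 was the only member with no overlap in exemestane. The log2 fold was 0.35 ± 0.0812 in raloxifene (edgeR adjusted p = 0.0113) and 0.33 ± 0.0813 in exemestane (edgeR adjusted p = 0.0394). With class it was 0.18 ± 0.0756 in raloxifene (edgeR adjusted p = 0.902) and 0.21 ± 0.0707 in exemestane (edgeR adjusted p = 0.507). Gabra5 was also the member with the smallest p in tamoxifen, at 126.4, 125.8, 164.2, 141.2 and 160.6 CPM. There the fold was 0.36 ± 0.0814 with an edgeR adjusted p of 0.0935, which missed the threshold of 0.05, and a DESeq2 adjusted p of 0.0106.

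Gabra4, the alpha4 partner of delta, had the largest fold of the 7 in raloxifene and the largest loss when class entered the model. It was at 138.6, 142.5, 150.3, 136.1 and 151.4 CPM in raloxifene libraries and at 87.59, 98.41, 100.7, 124.6 and 97.14 CPM in vehicle libraries. The vehicle library nearest to raloxifene, at 124.6 CPM, was the single class B library of that group. The log2 fold was 0.50 ± 0.146 as designed (edgeR adjusted p = 0.018) and 0.07 ± 0.0957 with class (edgeR adjusted p = 0.986). Exemestane libraries had 141.2, 142.0, 139.1 and 158.2 CPM in class B and 97.61 CPM in class A. Their fold of 0.42 ± 0.147 did not pass as designed in edgeR (adjusted p = 0.0658), passed in DESeq2 (adjusted p = 0.0397), and was 0.08 ± 0.09 with class.

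Within groups, Gabra4 followed class in each of the 4 groups that hold both classes. In tamoxifen it was at 153.1, 152.4 and 145.4 CPM in class B and at 104.1 and 86.46 CPM in class A. In anastrozole it was at 137.2 and 125.1 CPM in class B and at 89.76, 91.22 and 88.44 CPM in class A. No class A library of any group reached the lowest class B library. The 5 estradiol libraries, all class A, spanned 80.32 to 93.64 CPM.

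Gabra3 encodes the alpha3 subunit, which is known from monoamine neurons and the reticular thalamus as well as the hippocampus. It was at 48.25, 43.66, 54.33, 51.67 and 55.79 CPM in raloxifene libraries and at 44.62, 41.05, 36.08, 35.09 and 33.1 CPM in vehicle libraries. The ranges met at 1 library on each side. The fold was 0.42 ± 0.123 (edgeR adjusted p = 0.018) as designed and 0.18 ± 0.128 with class (edgeR adjusted p = 0.966). Vehicle replicate 4, although of class B, was the second lowest vehicle library for Gabra3, unlike Gabra4. In exemestane Gabra3 ranged from 31.26 to 54.91 CPM with a median of 49.08 CPM, and the class A library was again the lowest.

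The folds of the beta subunit genes were smaller. Gabrb1, which encodes the beta1 subunit, was at 80.51, 94.72, 95.42, 86.39 and 91.02 CPM in raloxifene libraries and at 78.36, 87.92, 73.05, 70.04 and 82.82 CPM in vehicle libraries. The groups overlapped, and the fold of 0.19 ± 0.0659 passed (edgeR adjusted p = 0.0346). Leaving out 1 library at a time, the call held 4 times of 10 and was lost without raloxifene replicate 2, 3 or 5 or vehicle replicate 1, 3 or 4, with folds of 0.17 to 0.25 throughout. With class the fold was 0.14 ± 0.0726 and did not pass (edgeR adjusted p = 0.942), and it ran from 0.03 to 0.18 when 1 library was left out. Gabrb2, the beta2 subunit, was at 82.47, 79.92, 88.11, 71.95 and 82.99 CPM in raloxifene libraries and at 72.71, 68.42, 77.87, 71.12 and 65.67 CPM in vehicle libraries. Its fold of 0.19 ± 0.088 did not pass (edgeR adjusted p = 0.105). In exemestane the folds were 0.16 ± 0.066 for Gabrb1 and 0.09 ± 0.0884 for Gabrb2, and neither passed.

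Gabrd, which encodes the delta subunit, was the only member with a negative fold in raloxifene, exemestane and tamoxifen. It was at 18.34, 13.55, 23.45, 14.31 and 15.96 CPM in raloxifene libraries and at 23.14, 22.69, 24.82, 18.01 and 17.37 CPM in vehicle libraries. Exemestane libraries had 15.36, 14.63, 17.03, 17.61 and 18.22 CPM. Both drug groups overlapped the vehicle range. The log2 fold was -0.30 ± 0.19 in raloxifene (edgeR adjusted p = 0.233) and -0.35 ± 0.192 in exemestane (edgeR adjusted p = 0.2). With class the folds were -0.05 ± 0.219 and -0.17 ± 0.207 in these comparisons.

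Where groups were compared by overlap alone, 3 of 7 genes (Gabra2, Gabra4 and Gabra5) had no overlap between raloxifene and vehicle libraries, against 18% of all genes tested. In exemestane 1 of 7 had none, against 2.99% of all genes. As designed, 24.8% of all genes passed in raloxifene and 6.51% in exemestane, to be set beside the marker counts here. Oligodendrocyte markers differed between the same groups. Of 8 such markers, 4 fell in raloxifene and 4 in exemestane as designed, Mbp, Cnp, Mag and Mobp in both, and 0 rose. Their summed level was 5120 to 6020 CPM in raloxifene, 4770 to 6540 CPM in exemestane and 6130 to 7500 CPM in vehicle libraries. Groups without a called subunit gene were also low against vehicle, though 0 of these markers passed there as designed. Their median log2 folds were -0.318 in estradiol, -0.279 in anastrozole, -0.227 in tamoxifen and -0.167 in sham. The sums were 5280 to 5610 CPM in estradiol, 5070 to 5830 CPM in anastrozole, 4790 to 6410 CPM in tamoxifen and 4870 to 8490 CPM in sham libraries. Of the 8 microglial markers, 2 fell in exemestane, Csf1r and Tmem119, with a summed level of 187 to 215 CPM in exemestane and 194 to 268 CPM in vehicle libraries. No marker of these lists was at 0 throughout a group. Of 7 pan-neuronal markers tested, 3 rose in raloxifene, Stmn2 by 0.17 ± 0.0494, Syt1 by 0.29 ± 0.0923 and Map2 by 0.26 ± 0.0919, and 0 fell. In exemestane 1 rose, Stmn2. Their summed level was 6060 to 6420 CPM in raloxifene, 5520 to 6620 CPM in exemestane and 5150 to 5710 CPM in vehicle libraries. The raloxifene and vehicle ranges did not overlap. The sum also differed by class, at 5710 to 6780 CPM in class B and 4790 to 5600 CPM in class A. Without sham replicate 1, class A began at 5020 CPM. Single pan-neuronal markers moved both ways between classes, so the sum does not stand for all of them. In class B, Map2 rose by 0.35 ± 0.0387 and Syt1 by 0.28 ± 0.0524. Tubb3 had a fold of -0.41 ± 0.041 and Rbfox3 of -0.24 ± 0.0679 there. Map2, a large part of the sum, averaged 2900 CPM in class B and 2210 CPM in class A. Map2 alone averaged 2850 CPM in raloxifene and 2370 CPM in vehicle libraries. The median log2 fold of the pan-neuronal markers was 0.025 in raloxifene, beside -0.023 over all genes. Markers of single neuron types moved both ways in raloxifene. Of 11 interneuron markers tested, Gad1, Gad2 and Vip rose and Slc32a1, the vesicular GABA transporter, fell. Of 8 markers of dentate granule cells, Calb1 rose and Maml2 and Plk5 fell, with a summed level of 303 to 361 CPM in raloxifene and 282 to 348 CPM in vehicle libraries. Of 7 markers of pyramidal cells, Neurod6 and Cpne4 rose and Bok fell, with a summed level of 769 to 841 CPM in raloxifene and 828 to 884 CPM in vehicle libraries. With class, no marker of these 6 lists passed in raloxifene or exemestane in edgeR. The median log2 fold of the oligodendrocyte markers stayed about as large, at -0.25 with class and -0.27 as designed in raloxifene, and at -0.32 with class and -0.30 as designed in exemestane. The part of these differences in the subunit folds was not tested.

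**Figure D2:**
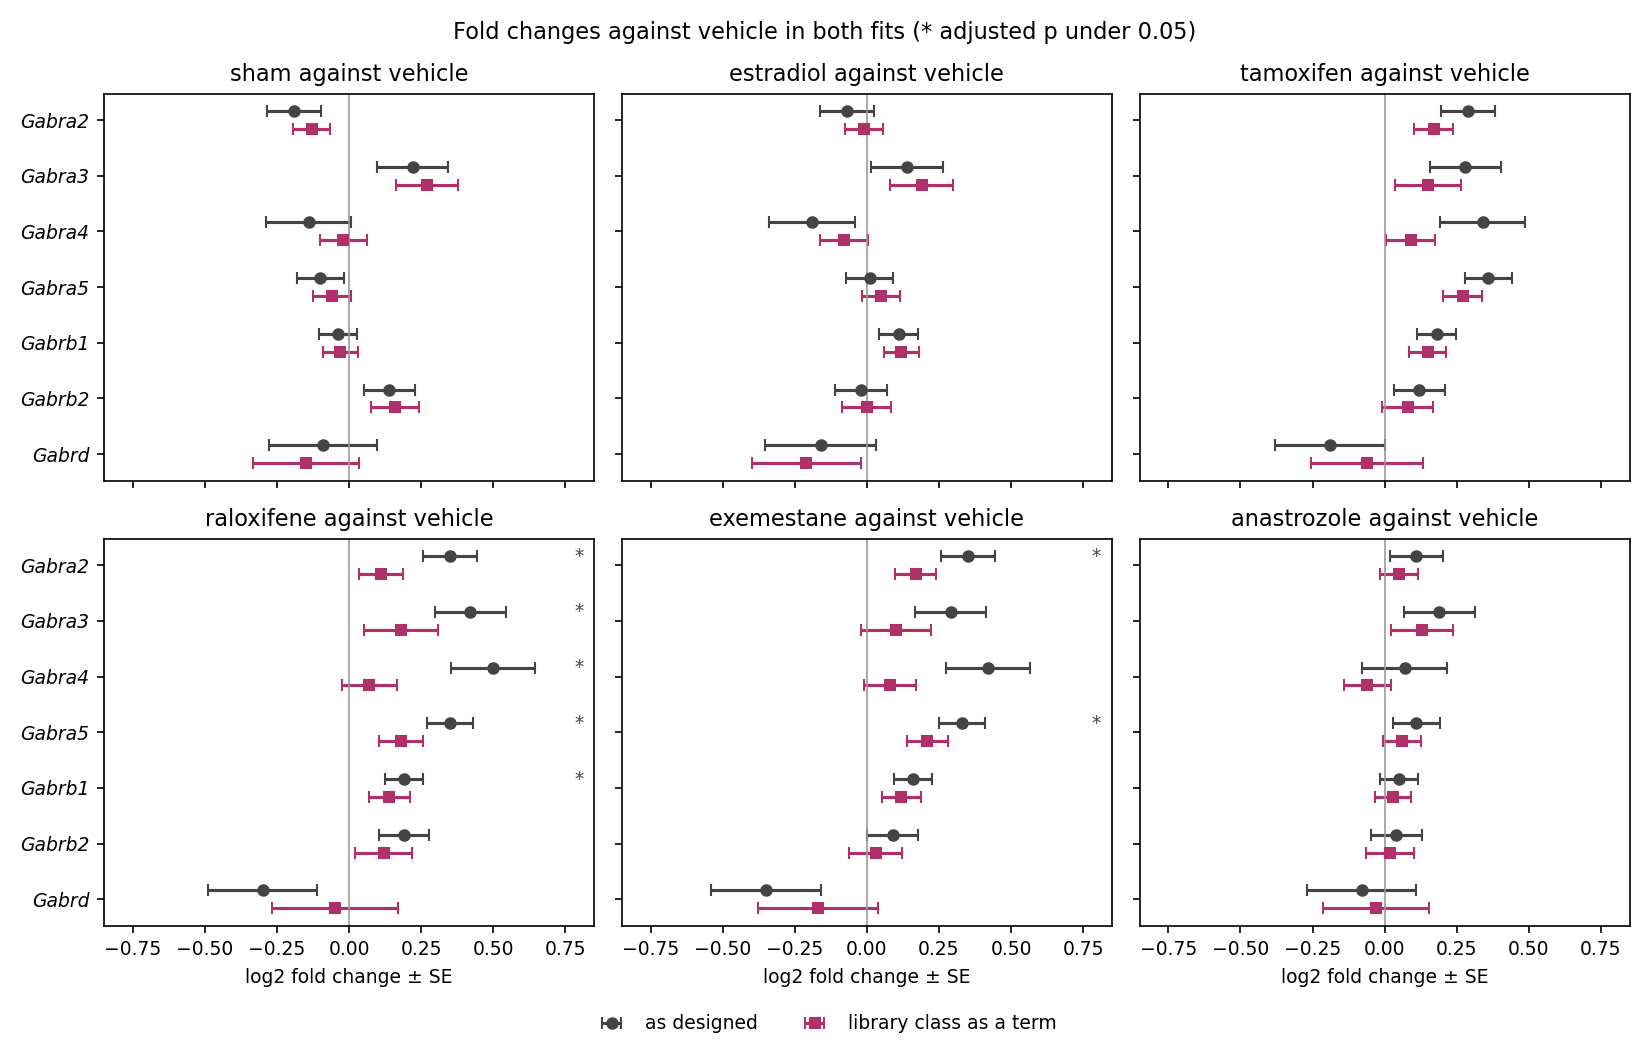
Log2 fold changes against vehicle (horizontal axis, ± SE) of the 7 subunit genes in the 6 comparisons with vehicle, as designed (circles) and with library class as a term (squares), edgeR on 35 libraries. Stars mark an adjusted p under 0.05: they stand at 5 genes in raloxifene and 2 in exemestane, all as designed.

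The class term itself was tested in the fit that holds group as well, and 51.9% of all genes passed. The alpha genes rose in class B, Gabra4 by 0.55 ± 0.0644 (edgeR adjusted p = 1.1e-08), Gabra2 by 0.29 ± 0.0505, Gabra3 by 0.28 ± 0.0866 and Gabra5 by 0.21 ± 0.0504. The beta genes had folds of 0.07 ± 0.0485 for Gabrb1 and 0.09 ± 0.0661 for Gabrb2 and did not pass. Gabrd had -0.31 ± 0.147 and did not pass (edgeR adjusted p = 0.082), while without sham replicate 1 its fold was -0.31 ± 0.0964 and passed (edgeR adjusted p = 0.00664). Thus 4 of 7 passed with all libraries, all 4 of them alpha genes. Calls also turned on 3 other libraries. Gabrd passed without tamoxifen replicate 2, Gabrb1 passed without vehicle replicate 4 with a fold of 0.14 ± 0.0479, and Gabra3 did not pass without exemestane replicate 5, with a fold of 0.19 ± 0.0888.

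Gabra4 was the only 1 of the 7 whose classes did not overlap, against 10.4% of all genes tested. It spanned 124.6 to 158.2 CPM with a median of 142.0 CPM in class B, and 63.75 to 104.6 CPM with a median of 93.26 CPM in class A. Gabra2 spanned 150.2 to 192.8 CPM in class B and 102.6 to 152.0 CPM in class A, so that they overlapped narrowly. Gabrd spanned 13.55 to 23.45 CPM in class B and 8.381 to 26.82 CPM in class A. Without sham replicate 1, class A began at 80.32 CPM for Gabra4, 109.6 CPM for Gabra2 and 15.4 CPM for Gabrd.

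The authors' own scaling narrowed the class difference without closing it for Gabra4. Their per-gene factor, by which each count is divided, had a median for Gabra4 that was 1.20 times as high in class B as in class A. The ratio was 1.09 for Gabra2, 1.07 for Gabra5, 1.05 for Gabra3, 1.05 for Gabrb1, 1.02 for Gabrb2 and 0.937 for Gabrd. After it, the authors' normalized signal of Gabra4 was 922 to 1144 in class B and 538 to 907 in class A. Without sham replicate 1 the class A signal began at 735. Gabra4 thus had both the largest fold between classes and the largest factor ratio, and Gabrd the lowest of both. The classes were themselves split by these factors, over genes other than the subunits. A class difference in the factors was therefore partly set in advance and gives no independent support to the class folds. With these factors in place of TMM, the class fold of Gabra4 still passed, as did Gabra2, and those of Gabra3 and Gabra5 did not.

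**Figure D3:**
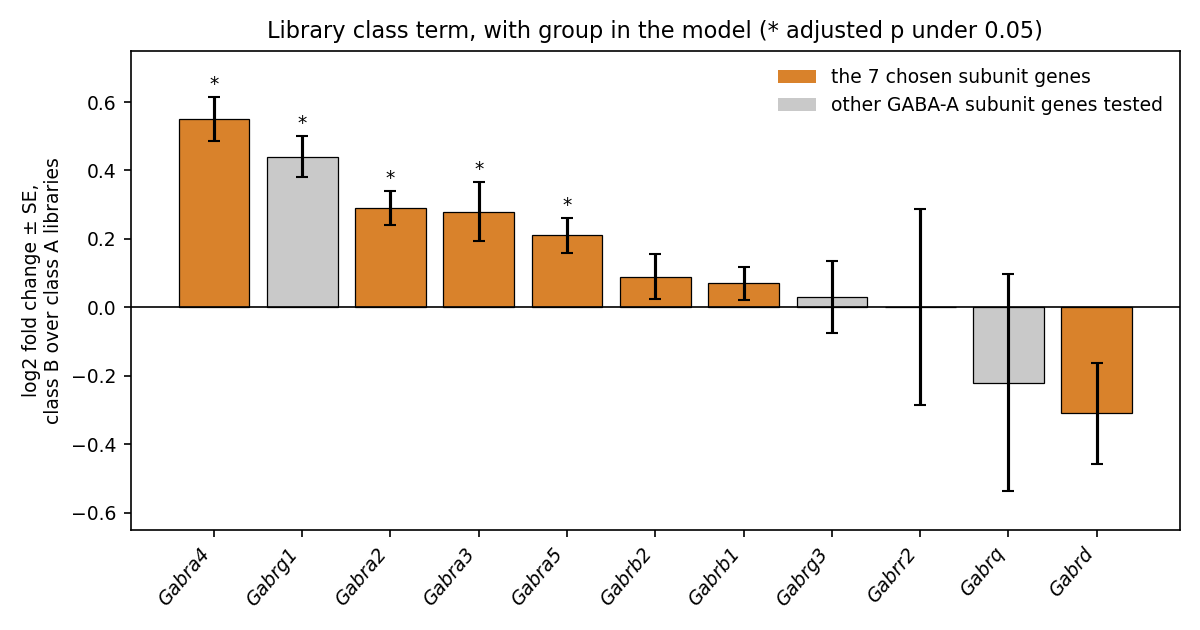
Log2 fold change (± SE) of class B over class A libraries for 11 GABA-A subunit genes, from the edgeR fit with group and class (n = 15 and 20 libraries). Orange bars are the 7 chosen genes, grey bars 4 other subunit genes tested, and stars an adjusted p under 0.05. Gabra4 has the highest fold at 0.55 and Gabrd the lowest at -0.31, and Gabrd did not pass with all libraries.

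Because alpha4 and delta are partners in one receptor type, their messenger RNAs were set against each other in each library. The log2 ratio of Gabra4 to Gabrd CPM was 2.68 to 3.39 with a median of 3.17 in class B, and 1.74 to 2.59 with a median of 2.13 in class A without sham replicate 1. Without that library these ranges did not overlap. Gabra4 alone already kept the classes apart, at 124.6 to 158.2 CPM in class B and 63.75 to 104.6 CPM in class A. Gabra4 and Gabrd also had the highest and lowest class folds of the members, at 0.55 and -0.31. Separation of their ratio was thus largely set in advance and gives no independent support to a class difference. The share of other gene pairs with such a separation was not measured. Sham replicate 1 stood at 2.93, inside the range of class B, with Gabra4 at 63.75 CPM and Gabrd at 8.381 CPM, each the lowest of all 35 libraries. CPM is not scaled for transcript length, so the ratio compares libraries and not the amounts of the subunits.

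**Figure D4:**
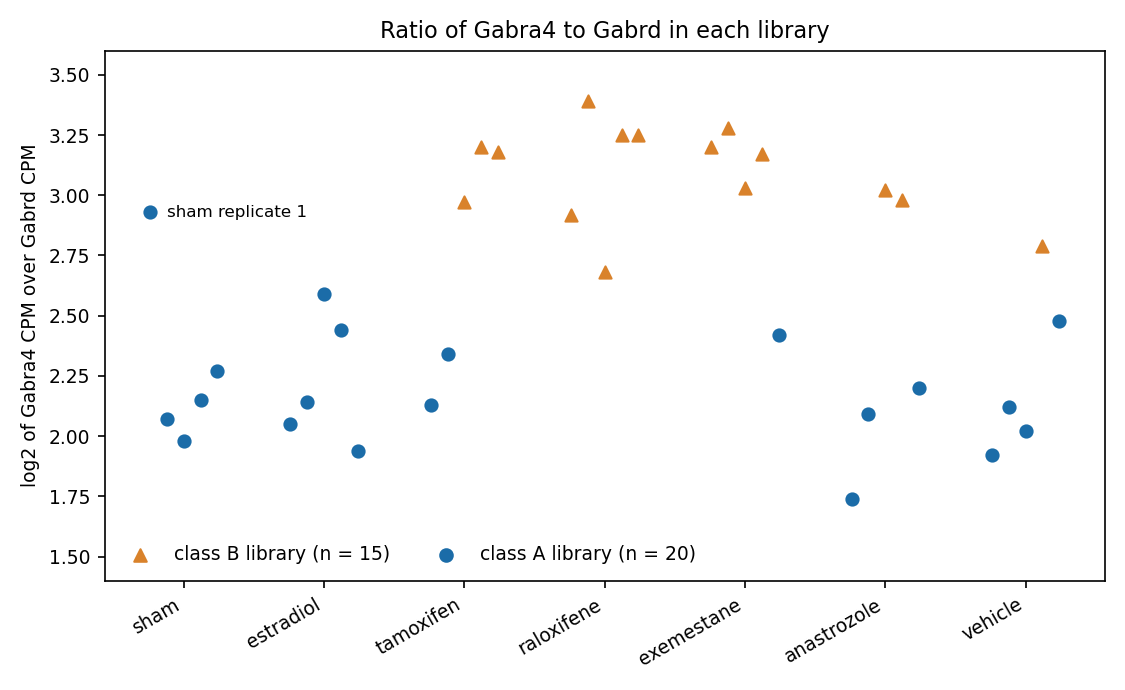
Log2 ratio of Gabra4 CPM to Gabrd CPM (vertical axis) in each of the 35 libraries by group, with vehicle at the right. Triangles are class B and circles class A libraries. The class B libraries lie between 2.68 and 3.39 and the class A libraries between 1.74 and 2.59, except sham replicate 1 at 2.93.

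In tamoxifen, 0 of 7 genes passed in edgeR as designed, where 0.0% of all genes did, and DESeq2 called 1, Gabra5. An unadjusted p under 0.05 was found for 5 of the 7 and for 2365 of all 14411 genes. The folds of those 5 were 0.29 ± 0.0929 for Gabra2, 0.28 ± 0.124 for Gabra3, 0.34 ± 0.147 for Gabra4, 0.36 ± 0.0814 for Gabra5 and 0.18 ± 0.0662 for Gabrb1. They were close in size to those of raloxifene, but the 2 comparisons share the vehicle libraries. Leaving out tamoxifen replicate 2 brought 2 genes past the threshold, Gabra2 and Gabra5, and leaving out replicate 1 brought 1, Gabra5. These are the 2 class A libraries of tamoxifen, so leaving out either sets tamoxifen and vehicle further apart in class. With class 0 of 7 passed in edgeR, with 0.0% of all genes called. An unadjusted p under 0.05 was then found for 3 members and for 1210 of all 14411 genes. Gabra5 then had the smallest p again, with a fold of 0.27 ± 0.0674 (edgeR adjusted p = 0.158).

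In anastrozole, no member passed the test. The folds ran from -0.08 for Gabrd to 0.19 for Gabra3, and 0 of 7 passed in edgeR, with 0 at an unadjusted p under 0.05, 0 called by DESeq2 and 0.0% of all genes called. With class 0 of 7 passed, 0 had an unadjusted p under 0.05 and 0.0% of all genes were called. Gabra2 was at 169.9 and 171.6 CPM in the 2 class B libraries of anastrozole and at 125.0, 132.8 and 132.4 CPM in the 3 of class A.

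In sham-operated rats, which kept their ovaries, the members lay on both sides of vehicle. Gabra2 was at 102.6, 118.6, 133.1, 113.9 and 125.0 CPM in sham libraries, with a fold of -0.19 ± 0.0931 (edgeR adjusted p = 0.730). Gabra3 had a fold of 0.22 ± 0.123 and Gabrb2 of 0.14 ± 0.088. As designed 0 of 7 passed in edgeR, with 1 at an unadjusted p under 0.05, 0 called by DESeq2 and 0.0% of all genes called. With class 0 of 7 passed in edgeR, with 1 at an unadjusted p under 0.05, Gabra3, and 0.0416% of all genes called. Of 14411 genes, 981 had an unadjusted p under 0.05 as designed and 1460 with class. Gabrd stood at 8.381, 22.51, 24.38, 23.57 and 21.43 CPM in sham libraries. Its fold was -0.09 ± 0.188 with all libraries, and 0.12 on the log2 scale without sham replicate 1, so its sign rests on that library.

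Estradiol, the main hormone that ovariectomy removes, moved none of the 7 past the threshold. The largest folds were -0.19 ± 0.149 for Gabra4, -0.16 ± 0.192 for Gabrd and 0.14 ± 0.125 for Gabra3. As designed 0 of 7 passed in edgeR, with 0 at an unadjusted p under 0.05 and 0 called by DESeq2, while 0.00694% of all genes passed. With class 0 of 7 passed, with 0 at an unadjusted p under 0.05 and 0.298% of all genes called. Estradiol libraries varied little for Gabra2, at 131.4, 132.7, 125.3, 135.0 and 119.9 CPM, and for Gabrb2, at 67.61 to 73.18 CPM.

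Drugs of one class were set against each other, although their doses differ. Tamoxifen at 3.23 mg/kg had folds over raloxifene at 9.68 mg/kg of -0.16 to 0.12, none with an unadjusted p under 0.05. In edgeR 0 of 7 passed, DESeq2 called 0, and 0.0% of all genes were called both as designed and with class, where again 0 of 7 passed and 0 had an unadjusted p under 0.05. The widest standard error of these folds was 0.192, for Gabrd, so that small differences cannot be seen. Exemestane at 0.16 mg/kg had folds over anastrozole at 4.03 mg/kg of 0.35 ± 0.146 for Gabra4, 0.24 ± 0.0924 for Gabra2 and 0.22 ± 0.081 for Gabra5. In edgeR 0 of 7 passed as designed, with 3 at an unadjusted p under 0.05, 0 called by DESeq2 and 0.0% of all genes called. With class 0 of 7 passed, with 1 at an unadjusted p under 0.05, Gabra5, and 0.0278% of all genes called. Of 14411 genes, 3900 had an unadjusted p under 0.05 as designed and 1848 with class. Leaving out exemestane replicate 5, the class A library of its group, brought 3 genes past the threshold as designed (Gabra2, Gabra4 and Gabra5). Leaving out anastrozole replicate 3 or 4, the class B libraries of that group, brought 2 each. Each of these fits sets exemestane and anastrozole further apart in class.

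The test of any difference among the 7 groups passed for Gabra2, Gabra4, Gabra5 and Gabrb1 as designed, 4 of 7, where 37.0% of all genes passed. The edgeR adjusted p was 0.000368 for Gabra2, 0.0012 for Gabra4, 0.000343 for Gabra5 and 0.0198 for Gabrb1. With class 0 of 7 passed in edgeR, with 2 at an unadjusted p under 0.05, Gabra2 and Gabra5, and 0.0278% of all genes passed. The order of the group means put raloxifene first for Gabra3, Gabra4, Gabrb1 and Gabrb2, exemestane first for Gabra2 and tamoxifen first for Gabra5. With all libraries, Gabrd had its highest mean in vehicle, at 21.21 ± 3.31 CPM, and its lowest in exemestane, at 16.57 ± 1.52 CPM (SD, n = 5 each). Its sham mean of 20.05 ± 6.62 CPM includes sham replicate 1, at 8.381 CPM. Without that library the log2 fold of Gabrd in sham over vehicle was 0.115, so the first place of vehicle rests on it. Sham stood last for Gabra2, Gabra5 and Gabrb1, estradiol last for Gabra4 and Gabrb2, and vehicle last for Gabra3. Of the 42 pairs of neighbours in these orders, 1 had a gap above the larger SD, Gabra5 in exemestane over anastrozole, and in none were the ranges apart.

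Of the other GABA-A subunit genes, 6 are given here and 4 of these passed the filter on low counts. Gabrg1, which encodes the gamma1 subunit and lies in the cluster of Gabra4 and Gabra2, had a fold of 0.31 ± 0.121 in raloxifene and did not pass (edgeR adjusted p = 0.0576), while its DESeq2 adjusted p was 0.0441. With class its raloxifene fold was -0.04 ± 0.0883. Gabrg3, Gabrq and Gabrr2 did not pass in raloxifene, with folds of -0.21 ± 0.128, 0.34 ± 0.382 and 0.29 ± 0.352. Between classes Gabrg1 rose in class B, averaging 56.4 ± 3.91 CPM there (SD, n = 15) and 40.7 ± 4.21 CPM in class A (SD, n = 20), with a fold of 0.44 ± 0.0598 (edgeR adjusted p = 1.39e-07). The other 3 did not pass between classes. Gabre and Gabrr3 had too few counts to be tested, at most 3.388 and 1.161 CPM in any library.

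Of 22 tested genes of anchoring and trafficking, which place the receptors, 1 rose and 2 fell in raloxifene, a smaller share than the 24.8% called over all genes. Gabarapl2, a relative of the GABA-A receptor associated protein, rose by 0.35 ± 0.106. Lhfpl4, which helps to hold receptors at inhibitory synapses, averaged 16.2 ± 1.61 CPM in raloxifene and 22.9 ± 3.81 CPM in vehicle (fold -0.50 ± 0.142), and Nlgn2, the neuroligin of inhibitory synapses, had a fold of -0.32 ± 0.115. In exemestane Lhfpl4 fell, 1 of these 22, where 6.51% of all genes passed. The median log2 fold of the 22 was 0.047 in raloxifene, beside -0.023 over all genes. Between classes, where 51.9% of all genes passed, 8 rose and 8 fell in class B, and Nlgn2 had a fold of -0.48 ± 0.0368.

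Chloride transport sets the direction of the current through GABA-A channels. Of 7 genes of chloride transport, 2 rose and 1 fell in raloxifene, where 24.8% of all genes passed. Clcn3, a chloride and proton exchanger of vesicles, rose by 0.27 ± 0.0834, and Wnk3, a kinase of chloride cotransporters, by 0.29 ± 0.104. Slc12a5, the cotransporter KCC2 that keeps chloride low in neurons, averaged 288 ± 18.6 CPM in raloxifene and 357 ± 40.1 CPM in vehicle (fold -0.31 ± 0.0955, edgeR adjusted p = 0.0215). In exemestane none of these genes passed in edgeR, where 6.51% of all genes did. Between classes, where 51.9% of all genes passed, 5 rose and 2 fell in class B. Slc12a5 fell with -0.35 ± 0.0428 and Clcn2 with -0.33 ± 0.0602. The GABA-B receptor genes Gabbr1 and Gabbr2 passed in neither drug and fell in class B, with folds of -0.14 ± 0.0336 and -0.17 ± 0.0527. Of 6 tested enzymes and carriers that make neurosteroids, 0 passed in raloxifene or exemestane, and 1, Srd5a3, a member of the steroid 5-alpha-reductase family, fell in class B by 0.31 on the log2 scale. With class, none of these 4 lists had a gene past the threshold in raloxifene or exemestane.

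How the members vary together was measured within each class, over 21 pairs per class with p-values adjusted within the class. Gabra2 and Gabra5 varied together in both. Their Pearson r of log2 CPM was 0.790 in class B (n = 15, permutation p = 0.00047, adjusted 0.00987) and 0.804 in class A (n = 20, permutation p = 3e-05, adjusted 0.00063). Spearman's rho was 0.768 (permutation p = 0.00121) and 0.791 (permutation p = 5e-05) in these classes. Without the 2 libraries farthest from the median, r was 0.75 in class B and 0.670 in class A, and with group means removed it was 0.804 in class B and 0.672 in class A.

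In class B, 6 of the 21 pairs passed for r, all positive: Gabra2 with Gabra5, Gabra3 with Gabra4 and Gabrb1, Gabra4 with Gabra5 and Gabrb1, and Gabra5 with Gabrb1. By rho only the pair of Gabra2 and Gabra5 passed in class B. With group means removed, r was 0.526 for Gabra3 with Gabra4, 0.516 for Gabra4 with Gabrb1, 0.374 for Gabra5 with Gabrb1, 0.26 for Gabra3 with Gabrb1 and 0.155 for Gabra4 with Gabra5. These 5 r also fell without the 2 farthest libraries, Gabra3 with Gabrb1 to 0.179, against 0.697 with all 15, and Gabra5 with Gabrb1 to 0.256, against 0.667. In class A, 4 pairs passed for r: Gabra2 with Gabra5, Gabra2 with Gabrb1 (r = 0.688), Gabra5 with Gabrb1 (r = 0.592) and Gabra4 with Gabrd (r = 0.720). The last rests on sham replicate 1, since r was 0.237 without it and 0.276 without the 2 farthest libraries. Other pairs with Gabrd also turned on that library: r was -0.049 with it and -0.696 without it for Gabrb1, and 0.134 with it and -0.512 without it for Gabra5, with no test of the values without it. Gabra3 with Gabra5 had r = 0.482 in class B and -0.528 in class A, neither past the adjusted threshold, and the difference between classes was not tested. No pair with Gabrd passed in class B, where its r ran from -0.166 to 0.458.

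**Figure D5:**
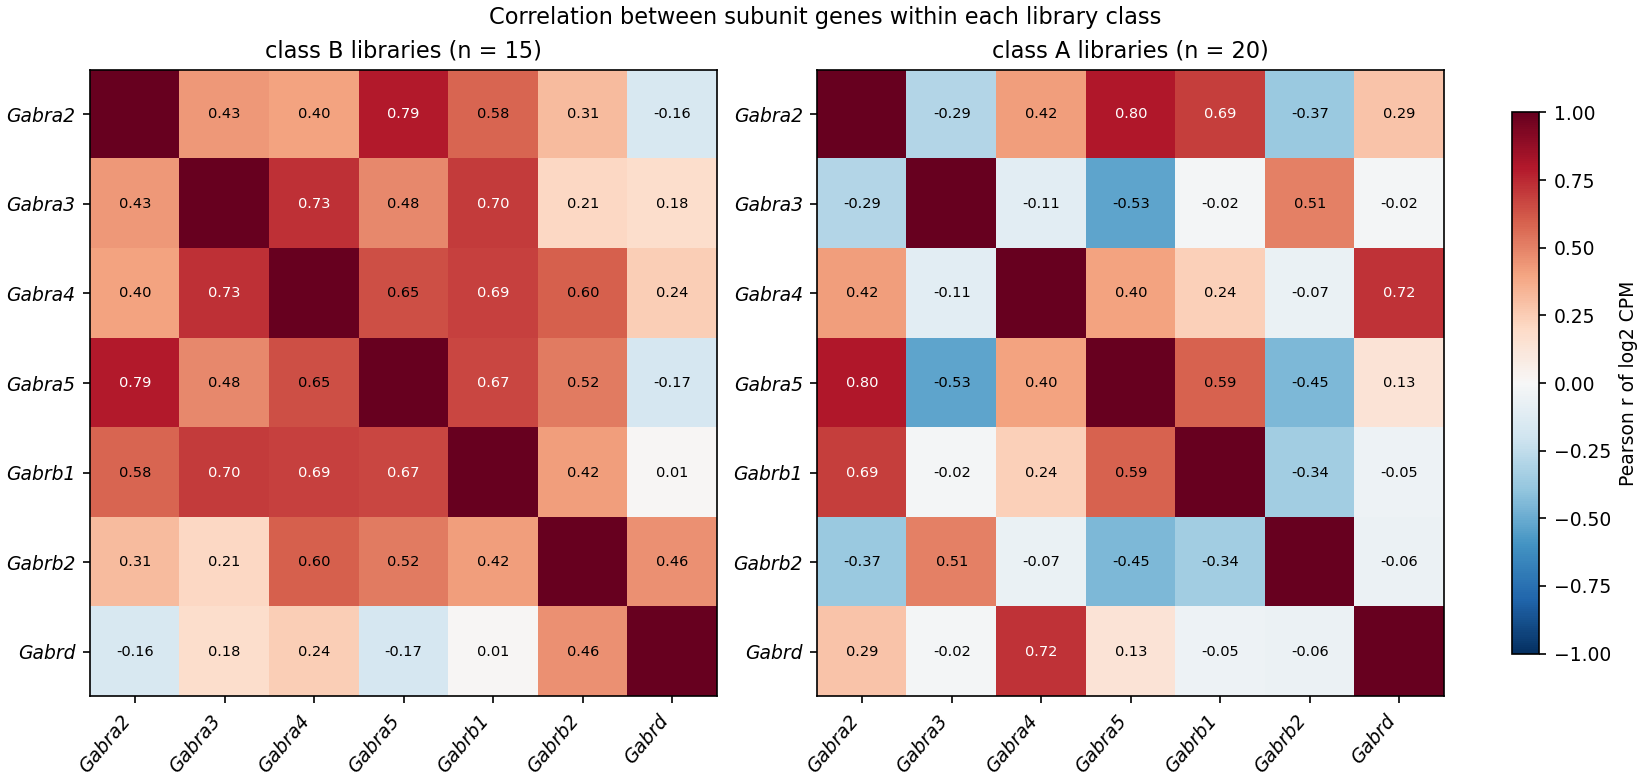
Pearson correlation of log2 CPM between the 7 subunit genes over class B libraries (left, n = 15) and class A libraries (right, n = 20), on a colour scale from -1 to 1. Gabra2 and Gabra5 have r of 0.79 in class B and 0.80 in class A. The r of 0.72 between Gabra4 and Gabrd in class A rests on sham replicate 1.

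The genes most like each member were ranked by the lower of their 2 correlations, in class B (n = 15 libraries) and in class A (n = 20), among 14008 genes of at least 1 CPM. These correlations are descriptions, as libraries share depth and dissection. For Gabra2 they were Gng2, Gabra5 and Arpc5, with r in class B and A of 0.797 and 0.796 for Gng2, a G protein gamma subunit. For Gabra3 they were Plcxd3, with 0.824 in class B and 0.843 in class A, Camk2d, a calcium and calmodulin dependent kinase, and Gucy1a1, a subunit of soluble guanylate cyclase. For Gabra5 they were Prkca, protein kinase C alpha, with 0.821 in class B and 0.875 in class A, Gabra2, and Cnr1, the CB1 cannabinoid receptor. Cnr1 was also among the 3 of Gabrb1, after Slc25a14 and Wdr7, with 0.753 in class B and 0.655 in class A.

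For Gabra4 the nearest genes were Scn2a, a neuronal sodium channel, with 0.923 in class B and 0.866 in class A, Syt1, the calcium sensor of synaptic vesicles, and Ppp3cb, a catalytic subunit of calcineurin. Without sham replicate 1 the class A values fell to 0.616, 0.543 and 0.712 for these 3. For Gabrb2 they were Tpd52, with 0.744 in class B and 0.761 in class A, Srpk2, a kinase of splicing factors, and Pak1, a kinase that acts on actin. For Gabrd they were Prkcb, protein kinase C beta, with 0.770 in class B and 0.858 in class A, Arhgap10 and Cap2. Without sham replicate 1 the class A values of these 3 were 0.548, 0.338 and 0.486.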

How the data were processed

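The files hold RNA sequencing of rat hippocampus. Stranded poly(A) libraries were sequenced as paired reads per the labels, and Salmon and DESeq2 are named in the submitters' processing notes. Versions, genome build and annotation are not given in the sources used here. The authors made estimated counts per gene (expected counts) and deposited them as whole numbers. A second table deposited by the authors holds a normalized signal, in which each count was divided by a factor of its own gene and library. Each sample column was matched by its name to 1 library.

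Counts were tested with edgeR 4.0.16 (limma 3.58.1, R 4.3.3): quasi-likelihood tests (robust) of all 35 libraries after TMM scaling, genes kept by filterByExpr with the group factor, with Benjamini-Hochberg adjustment over 14411 genes and a threshold of 0.05. The common biological coefficient of variation was 0.152, and replicate counts had 2.46 to 33.9 times the variance of counting error (chi-square per degree of freedom), so no libraries were treated as duplicates. CPM uses TMM-scaled totals. Log2 CPM had no prior count in the correlations between members and in the ratio of Gabra4 to Gabrd. A small constant was added to CPM for the genes of nearest pattern. The 8 comparisons were 6 groups against vehicle, tamoxifen against raloxifene and exemestane against anastrozole, followed by a test of any difference and a fit with library class. Library class came from the log ratio of the 2 tables over 14310 genes. DESeq2 1.42.0 was an alternative. Correlations used two-sided permutation tests of 100000 resamples. The edgeR fit as designed was run for raloxifene against vehicle on simulated counts without a class difference. That run did not cover the class term or DESeq2. Tables were made with Python 3.11.15, numpy 2.4.6 and pandas 2.3.3.

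Named are all members, other GABA-A subunits, up to 4 called genes per list and comparison by smallest adjusted p, and 3 genes of nearest pattern per member. Members and lists were chosen with earlier results of these data known, and the markers given for sham replicate 1 after their values were seen. Some genes of these lists are not reported here and were left out of the lists' counts and medians. Promoters are from RefSeq (GRCr8).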

Additional observations from a re-analysis of the deposited data

Results flagged for a closer look

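In 77 groups of 5 libraries (11 subunit genes in 7 groups), 7 had 1 library far from the other 4, where chance flags about 1 in 20 groups. Sham replicate 1 gave 3 of them, with the lowest sham value of Gabra4 (63.75 CPM, the others 94.61 to 104.6) and of Gabrd (8.381 CPM, the others 21.43 to 24.38), and the highest of Gabrq (2.318 CPM, the others 1.225 to 1.463). This library also carried the raised thalamic markers Tcf7l2 and Slc17a6, whose part in these values was not tested. Exemestane replicate 5, the class A library of its group, was lowest for Gabrb1 (78.41 CPM, the others 88.49 to 91.63). Tamoxifen replicate 2, of class A, was lowest for Gabrb2 (53.43 CPM, the others 77.93 to 87.53). In estradiol, replicate 1 was highest for Gabrq (1.661 CPM, the others 0.7302 to 0.8881). Anastrozole replicate 3, of class B, was lowest for Gabrr2 (1.147 CPM, the others 1.687 to 1.89).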

How the results depend on the processing

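Other factors (RLE) and no filter on low counts moved no call of a member and no sign. Library class as a term took the members called to 0 in raloxifene, exemestane and the test of any difference, and leaving out any 1 library there left it at 0. The authors' per-gene factors gave 3 in raloxifene, 1 in tamoxifen and 2 between classes, and DESeq2 gave 1 in tamoxifen and 3 in exemestane (Gabra4 added). In exemestane, 0 were called with the 2 groups alone, in class A alone and in class B alone, and in raloxifene 0 in class B alone. Class A has 1 exemestane library and class B 1 vehicle library, each assumed to vary like the other groups. Folds did not all shrink there: with the 2 groups alone exemestane had 0.35 for Gabra2 and 0.335 for Gabra5, and in class B alone raloxifene had 0.517 for Gabra3 and 0.34 for Gabrb1, with 0.192 for Gabra4. Leaving out 1 library gave 3 to 5 members in raloxifene (3 without vehicle replicate 1), 0 to 5 in exemestane (5 without exemestane replicate 5, 0 in 8 of 10 fits), 0 to 2 in tamoxifen, 0 to 3 in exemestane over anastrozole, 4 to 6 among the 7 groups and 3 to 5 between classes. No paired analysis was possible because the labels give the groups no shared replicate numbers.

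Signs that turned were of folds that did not pass as designed. In class A alone they were, in anastrozole, Gabra2 -0.013, Gabra4 -0.092, Gabrb1 -0.058 and Gabrd 0.037, in tamoxifen Gabra3 -0.030, Gabra4 -0.003 and Gabrb2 -0.030, in exemestane Gabra3 -0.304, Gabrb1 -0.038 and Gabrb2 -0.045, and in exemestane over anastrozole Gabra3 -0.415 and Gabrb2 -0.111. In class B alone, tamoxifen over raloxifene gave Gabra2 0.023, Gabra3 0.014, Gabra4 0.053 and Gabrb2 0.015. With class as a term it gave Gabra2 0.053, Gabra4 0.024, Gabrb1 0.011 and Gabrd -0.012, while Gabra3 in exemestane over anastrozole was -0.028 and Gabra4 in anastrozole -0.063. The authors' factors gave Gabrb1 0.006 in tamoxifen over raloxifene. Where leaving out 1 library turned a sign, the fold ranged from -0.037 to 0.16 for Gabra4 in anastrozole, -0.036 to 0.048 for Gabra5 and -0.044 to 0.019 for Gabrb2 in estradiol, -0.069 to 0.01 for Gabrb1 and -0.168 to 0.115 for Gabrd in sham, and in tamoxifen over raloxifene -0.039 to 0.056 for Gabra5, -0.054 to 0.008 for Gabrb1, -0.124 to 0.031 for Gabrb2 and -0.005 to 0.255 for Gabrd. The cause was not tested. Depth of 94 to 1796 counts per member and library limits Gabrd most.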
